A study of Rattus norvegicus with 36 samples.

Results

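Trim A is an isomiR of miR-125b that lacks the last adenosine at its 3′ end, and its effect on the RNA of hypoxic H9C2 cells was set against that of miR-125b itself. H9C2 cells are a line of myoblasts from rat heart. The comparison took the 3 Trim A and the 3 miR-125b libraries in hypoxia, which are 6 of the 36 samples of the series. The titles of the former say Trim 1, read here as Trim A because the study's legend gives T1 as Trim A. Counts of 33 of the 36 samples were used, and the other 27 served for levels beside the comparison or in normoxia. Both groups received 25 nmol/L of mimic, were left for 24 h and then spent 24 h below 0.2% oxygen in serum-free medium with low glucose. Both groups therefore carried a transfected mimic and both were starved of serum and oxygen, so that the mimic was the only labelled difference. Cells transfected with a mimic control (MC) in the same hypoxia gave the level without added miR-125b. The mimics were transfected synthetic RNAs in 1 cell line, and no endogenous isomiR was measured in these libraries. The labels do not say that replicates came from separate cultures, so p-values measure only the spread between these libraries, which may be technical.

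A microRNA guides an Argonaute protein to messenger RNAs that pair with its seed, a short stretch near the 5′ end, and lowers their stability and translation. The 3′ end of a microRNA is held in another pocket of Argonaute, and trimming or tailing there leaves the seed as it is. miR-125b is abundant in heart and is known for lowering pro-apoptotic genes such as *Bak1* and *Bmf*.

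The sequences are shown because the compared RNAs differ in 1 base only. Capitals mark the seed, bases 2 to 8, which both share. The sequence of miR-125b is that of rat miR-125b-5p in RefSeq, read from *Mir125b2* on the plus strand at chr11:29732588-29732609 of GRCr8. Trim A was written by removing its final A, as the study describes this isomiR, and is 21 bases long against 22.
miR-125b: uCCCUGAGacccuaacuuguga
Trim A: uCCCUGAGacccuaacuugug

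The libraries were made from poly-A RNA and do not keep the strand. The 3 Trim A libraries held 31064222, 31582108 and 34505916 counts and the 3 miR-125b libraries 29091237, 30994348 and 30971566. Levels are given in CPM, counts scaled to library size after TMM normalization, and differences as the log2 fold change of Trim A over miR-125b with its standard error (SE). The adjusted p throughout is that of edgeR's quasi-likelihood test with Benjamini-Hochberg adjustment over all genes tested, and a gene was called at an adjusted p below 0.05 and a fold of at least 1.5. The cells expressed the myoblast genes *Myod1* (34.3 to 42.3 CPM with Trim A and 40.1 to 41.4 with miR-125b) and *Vim*, while *Myf5* was at 0 counts in all 6 libraries. Markers of cardiomyocytes summed to 5.92 to 8.21 CPM over the 8 genes listed, and *Tbx5* was at most 0.03 CPM. Markers of leukocytes, neurons, epithelium and endothelium summed to at most 28.4 CPM per type. *Ptprc*, *Cdh1* and *Vwf* were at or near 0, while *Krt7*, *Tubb3* and *Cd14* reached 28.3, 27.0 and 19.1 CPM. Smooth muscle markers summed to 10876 to 12191 CPM with Trim A and 9550 to 9893 CPM with miR-125b. Fibroblast markers summed to 18189 to 34757 CPM and 38354 to 40320 CPM, so these lists do not single out myoblasts.

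Trim A replicate 1 stood apart from the other Trim A libraries. Over 15115 genes its root mean square difference in log2 CPM was 0.419 to 0.446 to the miR-125b libraries, but 0.501 and 0.484 to Trim A replicates 2 and 3. Replicates 2 and 3 differed by 0.417 from each other, and the miR-125b libraries by 0.386 to 0.390. In the genes with the lowest p described below, replicate 1 lay with the other Trim A libraries and away from miR-125b. Those genes were picked from a fit that includes replicate 1, which favours such genes, so they cannot tell how that library behaves. Of the 692 genes that were lower with Trim A when replicate 1 was left out, replicate 1 was below every miR-125b library in 449 (64.9%), with a median log2 ratio to the miR-125b mean of -0.19 against -0.69 in replicates 2 and 3. Of the 281 genes that were higher without it, replicate 1 was above every miR-125b library in 209 (74.4%), with medians of 0.32 and 0.67. Both sets were called against the same 3 miR-125b libraries, which favours replicate 1 lying on the called side. The same shares over all genes were not taken, so 64.9% and 74.4% have no background here. Because replicate 1 stood apart, counts of called genes are also given without it.

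Removing the last A of miR-125b was followed by small differences in most genes and large ones in few. Of 15115 genes tested, 69 (0.457%) were higher and 63 (0.417%) lower with Trim A, which is 0.873% in either direction. With no fold threshold 192 (1.27%) were higher and 139 (0.920%) lower. The 95% interval of the fold lay within 1.5-fold in either direction for 9295 genes (61.5%), and the median log2 fold change of all genes was 0.00014. Among called genes the median size was 0.75 on the log2 scale, and 23 of the 132 reached 2-fold. The 3 libraries of each group did not overlap for 4386 genes (29.0%), and 3547 (23.5%) had an unadjusted p below 0.05. Without Trim A replicate 1, 281 genes (1.83%) were higher and 692 (4.51%) lower, 6.34% in all, and 130 of the 132 genes were called again. Leaving out any other library left 8 to 30 genes higher and 4 to 5 lower. Without Trim A replicate 2 that was 0.195% higher and 0.0326% lower (0.228% in all), and without replicate 3 it was 0.124% and 0.0326% (0.156% in all). DESeq2 called 114 higher (0.754%) and 190 lower (1.26%), 2.01% in all.

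**Figure D1:**
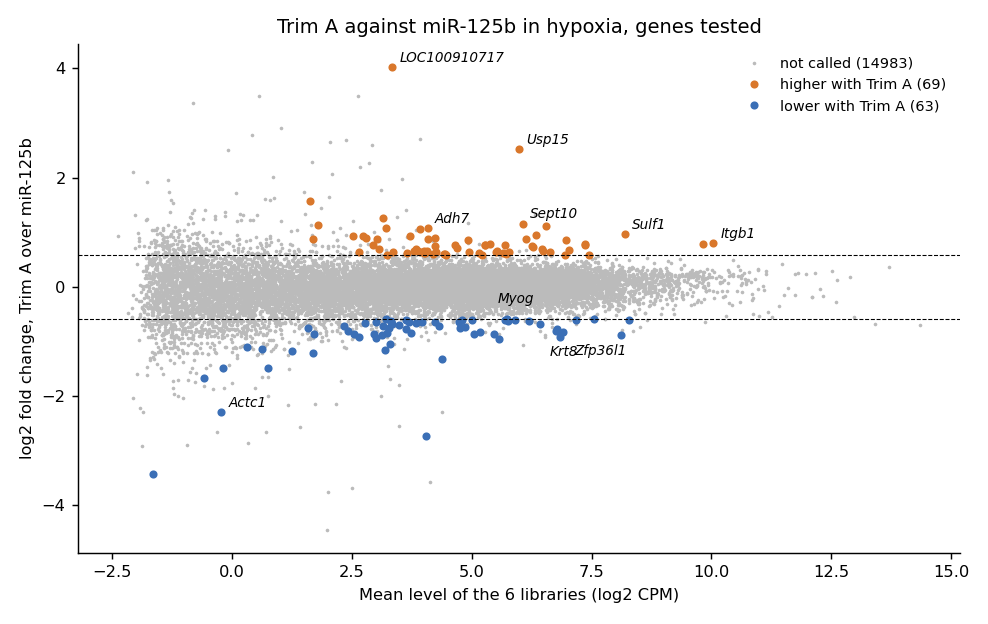
Each point is a gene, placed by its mean level over the 6 libraries (log2 CPM, horizontal axis) and its log2 fold change of Trim A over miR-125b in hypoxia (vertical axis). The dashed lines mark 1.5-fold, and the 69 genes called higher and 63 called lower lie outside them, with *LOC100910717* and *Usp15* farthest up among the called genes.

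**Figure D2:**
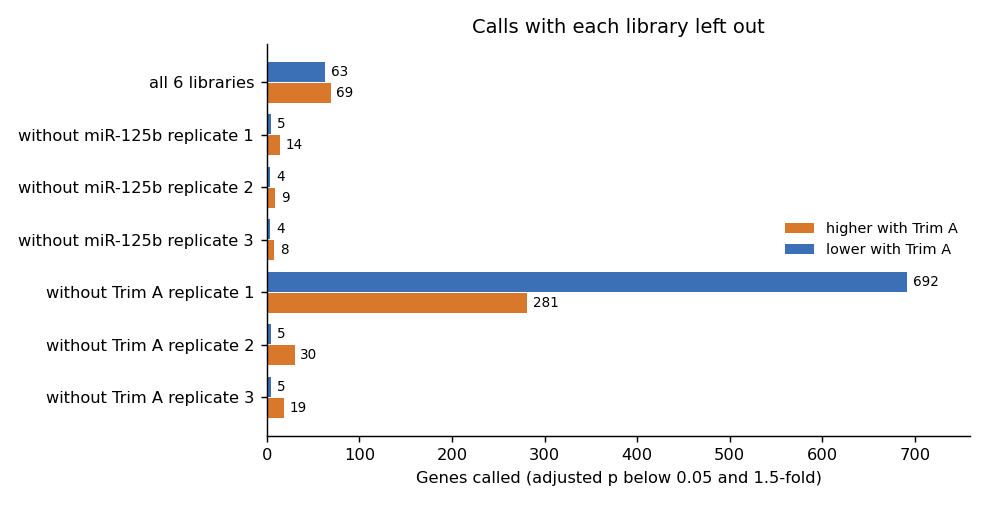
Bars give the number of genes called higher or lower with Trim A in the fit of all 6 libraries and in each fit that leaves out 1 library. The counts rise to 281 and 692 without Trim A replicate 1 and fall to at most 30 and 5 without any other library.

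Of the called genes, 9 were called in every one of the 6 fits that leave out a library, 8 of them higher and *Krt8* lower. The gene with the smallest p was *Usp15*, which encodes a deubiquitinase (chromosome 7, 66595742 to 66687278, plus strand, in the coordinates of the deposited table, whose build is not given in the sources used here). *Usp15* stood at 95.3, 117.8 and 109.8 CPM with Trim A and at 18.6, 18.4 and 18.6 CPM with miR-125b. The groups lay far apart, and all Trim A libraries were also above the mean of MC, 65.6 ± 2.07 CPM (SD, n = 3). Its fold was 5.75 (log2 2.52, SE 0.09, adjusted p = 4.11e-05), and the log2 fold change was 2.46 to 2.61 whichever library was left out.

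The largest fold among the 9 was that of *LOC100910717*, annotated as tankyrase-2-like, a poly(ADP-ribose) polymerase by its name. It stood at 23.4, 14.1 and 19.7 CPM with Trim A and at 1.04, 1.16 and 1.26 CPM with miR-125b. This is a log2 fold change of 4.03 (SE 0.22, adjusted p = 0.000649). Within other groups this locus spanned a similar range, from 1.11 to 27.2 CPM among the 3 MC libraries in hypoxia, so its replicates can differ by as much as these groups do.

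The others of the 9 have no role in common that was looked for. *Itgb1*, the integrin beta 1 chain that pairs with many alpha chains to bind matrix, stood at 1357, 1343 and 1327 CPM with Trim A and at 757, 774 and 761 CPM with miR-125b. The groups were separated by a gap many times the spread within either (log2 0.80, SE 0.06, adjusted p = 0.00166), and MC was above both at 1643 ± 8.97 CPM. *Sulf1*, a sulfatase that edits heparan sulfate at the cell surface, was 1.95-fold higher, with 402.0, 381.7 and 381.0 CPM against 195.1, 197.7 and 199.4 CPM (adjusted p = 0.00118). *PVR*, the poliovirus receptor, a nectin-like adhesion protein, was 1.81-fold higher, at 155 to 166 CPM against 86.3 to 89.5 CPM and 54.3 CPM in MC. *Sept10*, a septin of the cytoskeleton, was 2.22-fold higher (87.7 to 101.2 CPM against 39.6 to 42.9 CPM, adjusted p = 0.00132). *Zc3h15*, a zinc finger protein, and *Adh7*, an alcohol and retinol dehydrogenase, were 2.16-fold and 2.11-fold higher.

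*Krt8*, a keratin of simple epithelia, was the only one of these genes that was lower with Trim A. It stood at 79.6, 77.6 and 81.0 CPM with Trim A and at 138.4, 133.3 and 142.7 CPM with miR-125b, and MC was higher still at 185.5 ± 5.90 CPM. The log2 fold change was -0.81 (SE 0.06, adjusted p = 0.00166). *Krt7* was at 22.1 to 25.2 CPM against 23.9 to 28.3 CPM, and its groups overlapped. The list of keratins and other intermediate filaments had *Krt8* as the called gene among 10 tested, where 0.417% of all genes were lower. *Des*, desmin, was lower too without Trim A replicate 1, where 4.51% of all genes were.

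**Figure D3:**
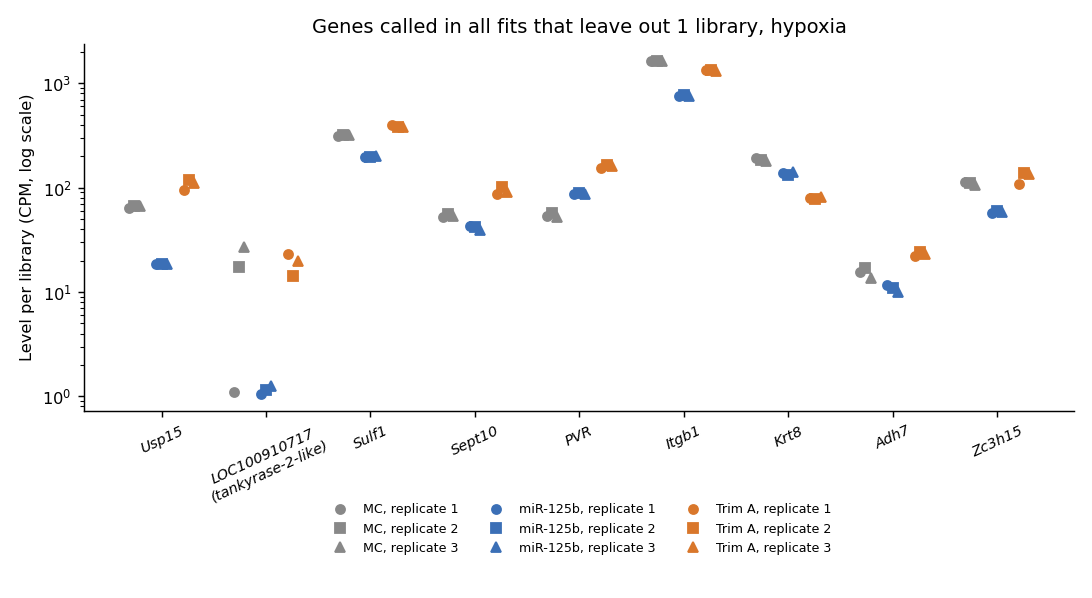
Points give the level of each library (CPM, log axis) for the 9 genes called in every fit that leaves out 1 library, in MC, miR-125b and Trim A in hypoxia, with 1 marker shape per replicate. The Trim A libraries lie above those of miR-125b for 8 genes and below for *Krt8*, and the MC libraries of *LOC100910717* span 1.11 to 27.2 CPM.

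Genes of mitosis and the spindle were higher with Trim A as a group. All 25 genes tested from this list had a positive log2 fold change, from 0.39 (*Aurkb*) to 0.88 (*Nusap1* and *Cep55*), with a median of 0.59 against 0.00014 over all genes, and 14 were called higher and 0 lower, against 0.457% and 0.417% of all genes. For all 25 the libraries of the groups did not overlap, which held for 29.0% of all genes. Their summed level was 809 to 896 CPM in the Trim A libraries, 539 to 560 CPM with miR-125b and 394 to 423 CPM in MC. In such bulk RNA more cells in mitosis and more RNA per cell cannot be told apart. In replicate 1 the median log2 ratio of the list to the miR-125b mean was 0.53, the lowest of the Trim A libraries, whose highest was 0.65. The list gave 16 genes higher without Trim A replicate 1, 5 without replicate 2 and 2 without replicate 3 (1.83%, 0.195% and 0.124% of all genes were higher in these fits), while the median stayed between 0.57 and 0.63. DESeq2 called 14 of the 25.

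*Kif11*, the kinesin that pushes the spindle poles apart, stood at 45.8, 51.7 and 48.4 CPM with Trim A and at 27.8, 27.7 and 29.3 CPM with miR-125b (log2 0.77, SE 0.07, adjusted p = 0.00595). *Cenpf*, a kinetochore protein, stood at 45.9, 50.3 and 50.1 CPM against 29.2, 29.4 and 26.5 CPM (log2 0.77, SE 0.07, adjusted p = 0.00655). Both stayed called without each Trim A library in turn. *Ccnb1*, the cyclin that drives entry into mitosis, was 1.82-fold higher (34.8 to 42.5 CPM against 20.1 to 22.7 CPM, adjusted p = 0.00939). *Prc1*, which bundles microtubules of the midzone, was 1.67-fold higher, and *Nusap1*, a spindle protein, 1.84-fold. *Cdc20*, the activator of the anaphase-promoting complex, was at 22.5, 22.0 and 22.1 CPM with Trim A and at 14.7, 13.8 and 14.8 CPM with miR-125b, a fold of 1.52. *Tpx2*, *Ube2c*, *Cenpa*, *Cenpe*, *Aurka*, *Bub1*, *Cep55* and *Ttk* made up the other called members, with log2 fold changes of 0.59 (*Ttk*) to 0.88 (*Cep55*).

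*Cdk1*, the kinase partner of cyclin B, was at 43.6, 57.4 and 52.1 CPM against 34.9 to 35.5 CPM and missed the fold threshold (log2 0.52, adjusted p = 0.0422). The proliferation marker *Mki67* missed it too, at a log2 fold change of 0.53. *Cdk1* and *Birc5*, survivin, were called too when Trim A replicate 1 was left out. Of 30 genes of DNA replication, 0 were called by edgeR (0.873% of all genes), and 8 had an unadjusted p below 0.05 (23.5% of all genes did). DESeq2 called 1, *Gins3* (log2 0.95 by edgeR), where it called 2.01% of all genes. The median log2 fold change of the 30 replication genes was 0.12. Without Trim A replicate 1 the subunits *Gins1*, *Gins3* and *Gins4* and the clamp loader gene *Rfc4* were called higher, where 1.83% of all genes were.

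Promoters of the mitosis genes were searched because the members moved together. The RefSeq promoter table (GRCr8, 250 bases before to 50 after each gene start, matched by symbol) held 12 of the 14 called members. TTTGAA, the core of the cell cycle genes homology region known from mitotic promoters, was found on either strand in 7 of these 12 (58.3%) and in 6140 of all 33469 promoters (18.3%). CCAAT, which can share a base with it, as in the promoter of *Mki67*, was found on either strand in 9 of the 12 (75.0%) and in 37.5% of all promoters. Over the whole tested list, called or not, 22 of the 25 were matched, and 15 of these (68.2%) held TTTGAA and 17 (77.3%) CCAAT, so the motifs did not set the called members apart from the rest of the list. Windows of 30 bases on the strand of the gene are printed for 4 called members, with TTTGAA in capitals. They lie on chromosome 5 at 137255833-137255862 (*Cdc20*), 13 at 103760867-103760896 (*Cenpf*), 3 at 127057292-127057321 (*Nusap1*) and 1 at 143659451-143659480 (*Prc1*), and the first base of the motif is at -51, 3, 10 and -18 from the gene start.
Cdc20: agacagttgggtTTTGAAggagccaatgaa
Cenpf: ggccgcgggcagTTTGAAtcgctcgtgctg
Nusap1: ggtggcgccagtTTTGAAcggtgctgtttt
Prc1: cctccggctcggTTTGAAttccgcggggtc
These matches are letters in a window, and binding was not measured.

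Collagens and other matrix genes lay below the miR-125b level in Trim A replicates 2 and 3 and near it in replicate 1. Of 36 tested, 33 had a negative log2 fold change, the median was -0.48, and 4 were called lower and 0 higher, where 0.417% of all genes were lower. The median log2 ratio of the list to the miR-125b mean was -0.09 in Trim A replicate 1, -0.68 in replicate 2 and -0.57 in replicate 3. *Col1a1*, the main chain of type I collagen, shows the split, with 23324, 11519 and 12950 CPM in Trim A replicates 1, 2 and 3 and 25210 to 26311 CPM with miR-125b. Its adjusted p was 0.142 with all libraries and 6.87e-07 without replicate 1, where the log2 fold change went from -0.70 to -1.08. Fibronectin (*Fn1*) had 9969 CPM in Trim A replicate 1, above all miR-125b libraries (9178 to 9853 CPM), but 4603 and 5111 CPM in the other two. Without replicate 1, 22 of 37 genes of the list were lower, where 4.51% of all genes were, DESeq2 on all libraries gave 8 of 36 (1.26% of all genes), and without replicate 2 or replicate 3 there were 0.

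The 4 called matrix genes had all Trim A libraries on one side. They were not alone in this, as the groups did not overlap for 18 of the 36 tested matrix genes (29.0% of all genes). *Mmp2*, a gelatinase, stood at 6.93, 5.61 and 5.92 CPM with Trim A and at 12.2, 11.4 and 10.1 CPM with miR-125b (log2 -0.88, SE 0.13, adjusted p = 0.0255). *Eln*, elastin, was at 7.96, 4.98 and 6.18 CPM against 14.5, 12.8 and 12.1 CPM (log2 -1.05, adjusted p = 0.0331). The small leucine-rich proteoglycans *Lum* and *Dcn* had log2 fold changes of -0.64 and -0.69. In MC these proteoglycans were at 57.7 and 40.1 CPM, so both mimics left them far below the control. The fibroblast marker list, which shares *Col1a1*, *Col3a1*, *Dcn* and *Lum* with these genes, summed to 18189 to 34757 CPM with Trim A and 38354 to 40320 CPM with miR-125b. Of its other members, *Thy1* was at 99.1 to 104 CPM with Trim A and 107 to 117 CPM with miR-125b, and *Fap* and *Pdgfra* were at most 0.44 CPM in the 6 libraries. The mitochondrially encoded genes moved the other way between the Trim A libraries, with medians of -0.06 in replicate 1, 0.51 in replicate 2 and 0.28 in replicate 3, and the part of this in the matrix values was not tested.

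**Figure D4:**
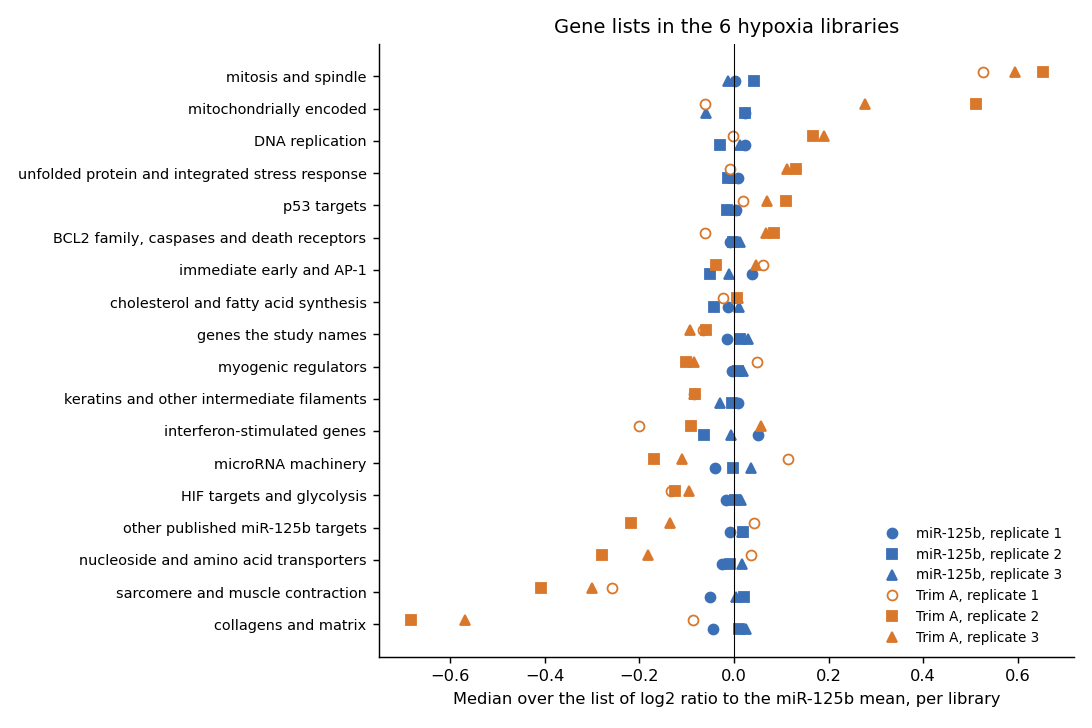
For each gene list, points give the median over its tested members of the log2 ratio of a library to the miR-125b mean in hypoxia, computed on CPM plus 0.5, for the 3 miR-125b and the 3 Trim A libraries. The mitosis list is at 0.53 to 0.65 in all Trim A libraries, while the matrix list is at -0.09 in Trim A replicate 1 (open circle) and at -0.68 and -0.57 in replicates 2 and 3.

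**Figure D5:**
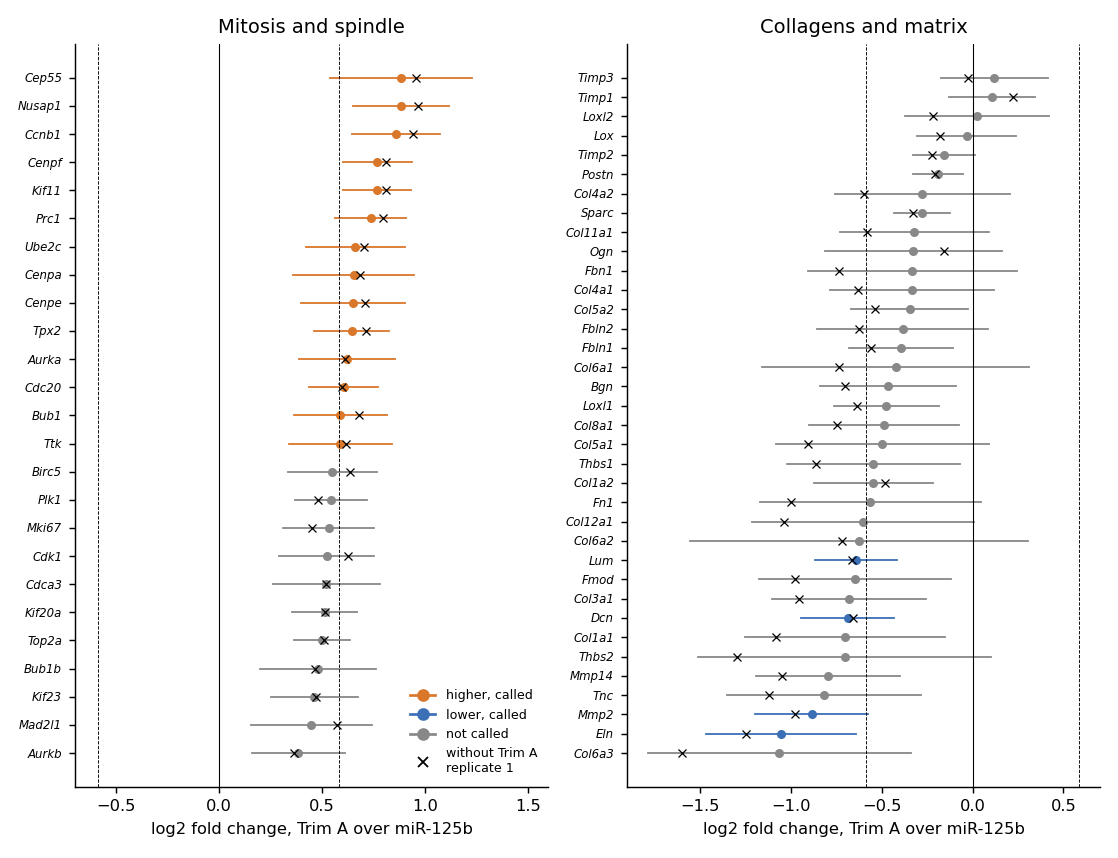
Points give the log2 fold change of Trim A over miR-125b in hypoxia for each tested gene of both lists, bars its 95% interval, crosses the value without Trim A replicate 1, and dashed lines 1.5-fold. The crosses of most matrix genes lie well to the left of the points, while those of the mitosis genes stay near them.

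Among muscle genes *Myog* and *Actc1* were called lower and *Acta1* higher. *Myog*, the transcription factor of terminal myogenic differentiation, stood at 43.2, 40.3 and 40.9 CPM with Trim A and at 63.4, 62.1 and 61.7 CPM with miR-125b (log2 -0.60, SE 0.06, adjusted p = 0.00821). MC was far above both, at 334.4 ± 10.7 CPM. Among 15 myogenic regulators *Myog* was the called gene (0.417% of all genes were lower), and *Myod1* had a log2 fold change of -0.12 with overlapping groups. *Myog* was lost without Trim A replicate 2 or 3, at log2 fold changes of -0.58 and -0.59. Skeletal alpha-actin (*Acta1*) was higher with Trim A, at 32.1, 32.5 and 30.1 CPM against 17.1, 18.9 and 19.2 CPM (log2 0.77, adjusted p = 0.00701), with MC at 157.9 CPM. Cardiac alpha-actin (*Actc1*) was lower, at 0.34, 0.38 and 0.14 CPM against 0.91, 1.54 and 1.80 CPM (log2 -2.30, SE 0.42, adjusted p = 0.0390), a low level in both groups. Of 25 sarcomere genes *Acta1* and *Actc1* were the called pair, where 0.873% of all genes were called. The median of the list was -0.41. Without Trim A replicate 1 it had 8 genes lower, among them nebulin (*Neb*) and *Myh3*, an embryonic myosin, where 4.51% of all genes were. Without replicate 2 or replicate 3 there were 0 lower, *Actc1* included, while *Acta1* was called in each of these fits. DESeq2 called *Acta1* higher (0.754% of all genes) and *Tnni2*, *Ryr1* and *Myh3* lower (1.26%) in this list. Of the smooth muscle markers *Cnn1*, calponin, was called higher, at 187 to 227 CPM against 134 to 146 CPM (0.457% of all genes were higher). *Acta2*, *Tagln* and *Myh11* were not called, at log2 fold changes of 0.18, 0.42 and 0.05. *Smtn*, by 1 of its 2 identifiers, was not called either, at -0.01.

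Cardiac troponin T (*Tnnt2*) was at 28.5 to 30.4 CPM with Trim A and at 40.0 to 42.3 CPM with miR-125b, against 291.5 CPM in MC. The groups did not overlap and the adjusted p was 0.0163, but the log2 fold change of -0.50 was under the fold threshold.

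The genes named by the study gave no call between the groups. The list holds targets and apoptosis genes of miR-125b, and also *Tnnt2* and the reference gene *Actb*. It was in part chosen on these samples, so it is not independent of them. Of 15 tested, 0 were called by edgeR (0.873% of all genes) or by DESeq2 (2.01%), and 8 had an unadjusted p below 0.05 (23.5%). For 10 the groups did not overlap (29.0% of all genes), and for 11 the 95% interval lay within 1.5-fold (61.5% of all genes). *Bak1*, a pore-forming killer of the BCL2 family, stood at 43.7, 42.8 and 40.0 CPM with Trim A and at 36.1, 35.9 and 36.5 CPM with miR-125b. MC was at 58.8 CPM, so both groups lay below the control, and the log2 fold change between them was 0.21 (95% interval 0.06 to 0.36, adjusted p = 0.125). *Bmf*, a BH3-only activator of apoptosis, was at 7.23 to 10.1 CPM with Trim A, 10.4 to 13.9 CPM with miR-125b and 35.0 CPM in MC. Its interval was wide (log2 -0.54, 95% interval -0.91 to -0.17, adjusted p = 0.115), and without Trim A replicate 1 it was called lower at -0.68 (adjusted p = 0.00333).

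*Bcl2l11*, which encodes Bim, had a log2 fold change of -0.32 (95% interval -0.56 to -0.08), and *Tp53inp1*, a p53-induced stress gene, one of 0.36 (0.17 to 0.55). *Hif1an*, the asparagine hydroxylase that inhibits HIF1, was at 15.6 to 17.9 CPM against 12.7 to 13.5 CPM (log2 0.37, adjusted p = 0.0736). *Traf6*, *Bax* and *Tnfrsf1b* overlapped between groups. The interval of *Tnfrsf1b*, at under 1 CPM, ran from -1.27 to 0.51, so a 2-fold fall could not be told from no difference. Over the wider list of BCL2 family members, caspases and death receptors, 0 of 34 were called by edgeR or DESeq2. Of these 34, 10 had an unadjusted p below 0.05, and the interval of 28 lay within 1.5-fold. Over all genes edgeR called 0.873% and DESeq2 2.01%, 23.5% had such a p and 61.5% such an interval. A count of 0 in 34 is therefore near the share of all genes. *Birc5* was higher and *Bmf* lower in this wider list without Trim A replicate 1, where 1.83% and 4.51% of all genes were. Among 20 other published targets of miR-125b, 0 were called by edgeR (0.873% of all genes), and 6 had an unadjusted p below 0.05 (23.5%). DESeq2 called *Vdr*, the vitamin D receptor, lower, as it did 1.26% of all genes. *Vdr* and *Cbx7*, a Polycomb protein, were lower without Trim A replicate 1, where 4.51% of all genes were. The median log2 fold change of the 20 targets was -0.10.

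Genes of the response to hypoxia and stress gave 2 called members. *Ddit4*, a hypoxia- and stress-induced inhibitor of mTORC1, was at 69.6, 60.8 and 67.9 CPM with Trim A and at 102.6, 105.2 and 108.9 CPM with miR-125b (log2 -0.69, SE 0.07, adjusted p = 0.00878). *Slc2a1*, the glucose transporter GLUT1 and a HIF target, was at 67.6, 49.7 and 56.6 CPM against 86.2, 88.8 and 89.7 CPM (log2 -0.62, SE 0.11, adjusted p = 0.0369). In both genes every Trim A library was below every miR-125b library, and the groups did not overlap for 29.0% of all genes. Without overlap, in either direction, were 17 of the 27 HIF targets and glycolytic genes and 11 of the 33 stress response genes. *Ddit4* was the called one of 33 genes of the unfolded protein and integrated stress response (median 0.06). *Slc2a1* was that of 27 HIF targets and glycolytic genes (median -0.12), and 0.417% of all genes were lower. Without Trim A replicate 1 *Hk2* and *Pfkl*, enzymes of glycolysis, and *P4ha2*, a collagen prolyl hydroxylase, were lower too, where 4.51% of all genes were. *Slc2a1* was not called without replicate 2 or 3, nor *Ddit4* without replicate 3.

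In the remaining lists edgeR called 0 genes with all 6 libraries, where it called 0.873% of all genes. The unadjusted p was below 0.05 for 23.5% of all genes, and for 8 of 20 p53 targets, 7 of 29 cholesterol and fatty acid genes, 4 of 25 interferon-stimulated genes and 5 of 23 immediate early genes. It was below 0.05 for 1 of 22 genes of the microRNA machinery, 6 of 18 nucleoside and amino acid transporters and 4 of 11 mitochondrially encoded genes. DESeq2 called 1 gene in these lists, the nucleoside transporter *Slc29a2*, as lower (1.26% of all genes were). In the fit without Trim A replicate 1, given next, 4.51% of all genes were lower. Without Trim A replicate 1 edgeR called as lower the lipid synthesis genes *Dhcr7* and *Fasn*, the interferon regulatory factor *Irf7*, the immediate early genes *Egr3* and *Fosb*, *Zswim8*, which acts in target-directed microRNA decay, and the nucleoside transporter *Slc29a1*.

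Other genes were named for being among the 12 of each direction with the smallest p. Lower with Trim A was *Por*, the reductase that feeds electrons to cytochromes P450, at 26.3 ± 4.02 CPM against 46.1 ± 3.24 CPM (SD, n = 3 each, log2 -0.82, adjusted p = 0.0216). *Zfp36l1*, which destabilises messenger RNAs with AU-rich elements, was at 97.6, 70.0 and 70.3 CPM against 148.6 to 149.9 CPM (log2 -0.93). *Fopnl*, a centrosomal and ciliary gene, had 0.551 times its level with miR-125b, and *Rcn3*, a calcium-binding protein of the secretory pathway, 0.658 times. *Sft2d2*, *Gramd1a*, *Rsrp1* and *Gm7325* were also lower, with log2 fold changes of -0.60 to -0.87. Higher with Trim A were *Adipor1*, an adiponectin receptor (1.69-fold), *Selt*, a selenoprotein of the endoplasmic reticulum (1.82-fold), and *Oaf* (1.65-fold). In each of these genes the Trim A and miR-125b libraries did not overlap, as the rule for naming them required.

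The same mimics were compared in normoxia. Normoxic cells had fresh DMEM in place of the serum-free low-glucose medium, so oxygen and medium cannot be told apart. There 54 of 14732 genes were higher (0.367%) and 7 lower (0.0475%) with Trim A, 0.414% in all. In normoxia the first replicates of miR-125b and of Plus A, the isomiR with an added A, each stood apart from their group. In miR-125b replicate 1 *Usp15* was at 47.4 CPM against 25.8 and 24.6 CPM in the others of its group and *Cav1*, caveolin 1, at 106 CPM against 287 and 266 CPM, near the levels of Plus A replicates 2 and 3 (48.4 and 51.0 CPM for *Usp15*, 103 and 103 CPM for *Cav1*). Plus A replicate 1 was at 23.7 and 271 CPM, near miR-125b replicates 2 and 3. Whether these 2 libraries were exchanged was not tested, and every normoxia fold and interaction rests on the labels as given. Without miR-125b replicate 1, 74 genes were higher and 16 lower. *Usp15* was higher with Trim A in normoxia too, at 93.5 to 98.2 CPM (log2 1.54, adjusted p = 0.0113, and 1.90 without that library), as was *Itgb1* (log2 0.87, adjusted p = 0.0183, and 1.07 without it). Of the 132 genes called in hypoxia 131 were tested in normoxia, and 15 (of 61 called there) were called, 14 in the same direction. All 25 mitosis genes had a positive log2 fold change in normoxia as well, with a median of 0.41. Of these 8 were higher at an adjusted p below 0.05 with no fold threshold, among them *Cenpa* (0.43) and *Cep55* (0.73), where 1.43% of all genes were. Without Normoxia miR-125b replicate 1 it was 14, *Kif11*, *Cenpf*, *Prc1* and *Ccnb1* among them, where 2.27% of all genes were, at a median of 0.29.

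The difference between the hypoxia and the normoxia fold was tested as an interaction. It was called for 94 of 15534 genes (0.605%), 19 with a higher (0.122%) and 75 with a lower fold (0.483%) in hypoxia, and 3481 genes (22.4%) had an unadjusted p below 0.05. *Tnnt2* was among them, with a log2 fold change of -0.50 in hypoxia and 1.39 in normoxia. In normoxia it was at 23.8, 45.1 and 24.7 CPM with Trim A and at 13.4, 9.39 and 13.0 CPM with miR-125b, so the groups were ordered the other way than in hypoxia. *Myog*, *Lum* and *Mmp2* had log2 fold changes of 0.44, 0.94 and 0.46 in normoxia, with adjusted p of 0.0876, 0.0852 and 0.145 there. *Krt8* was at 33.6 to 45.3 CPM with Trim A and 40.2 to 42.4 CPM with miR-125b in normoxia, where its groups overlapped. For *Usp15* the interaction was 0.99 with an adjusted p of 0.0688, and for *Itgb1* it was -0.05 with an adjusted p of 0.875. No gene was called in every fit that leaves out 1 of the 12 libraries. Without Normoxia miR-125b replicate 1 edgeR called 0 genes, 3024 had an unadjusted p below 0.05, and *Tnnt2*, *Myog*, *Lum* and *Mmp2* each had an adjusted p of 0.0525. Without Hypoxia Trim A replicate 1 it was 1141 genes.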

How the data were processed

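Of 12 deposited tables, each for a comparison of groups, 11 hold raw counts per gene and library, beside an FPKM value (counts scaled by gene length and library total) and the authors' own log2 fold changes and p-values, which were not used. The submitters' processing notes name HISAT2 and StringTie. The counting tool and genome build are not given in the sources used here. The compared table listed 21319 genes, 279 names had more than 1 identifier, and the libraries were not stranded, so near-identical, overlapping and antisense genes are uncertain. Each count column used was matched to a sample through the sample's title and description.

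The fit used edgeR 4.0.16 under R 4.3.3 (TMM, filterByExpr, quasi-likelihood test) on the 6 libraries, and on 12 for the interaction. Levels are CPM after TMM over 33 libraries, so errors are the spread between libraries. Totals per library were 28361216 to 42672584. Alternatives were DESeq2 1.42.0, limma 3.58.1 (voom with quality weights), RLE, no filter, all libraries, a replicate block, other folds and each library left out. Distances used a prior count of 2. Named genes are the 12 per direction with the smallest p among called protein-coding genes that have a gene name, at least 1 CPM and no overlap, those called in all 6 fits without 1 library, those the study names, and called list members. *Cnn1* and other genes given as list examples were chosen after their values were seen. Members, rule and lists were chosen with earlier results of these data known. Some genes that meet this rule are not reported here. Seed matches in 3′ untranslated regions were not used here. The fitting code was first tested on simulated data. Tables and figures used Python 3.11.15, pandas 2.3.3, numpy 2.4.6 and matplotlib 3.10.9.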

Additional observations from a re-analysis of the deposited data

Results flagged for a closer look

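The fold of Trim A over miR-125b differed between hypoxia and normoxia, by a test of the difference itself, for 94 genes, of which 8 are named in the report. On the log2 scale the hypoxia fold minus the normoxia fold was 5.72 for *LOC100910717*, 1.25 for *Adh7*, -0.72 for *Krt8*, -0.75 for *Rsrp1*, -1.03 for *Myog*, -1.33 for *Mmp2*, -1.57 for *Lum* and -1.88 for *Tnnt2*. All 94 were called again, with the same sign, without Hypoxia Trim A replicate 1, and 0 of them without Normoxia miR-125b replicate 1. *LOC100910717* varied within groups, at 1.52 to 6.13 CPM among the normoxia Trim A libraries and 4.19 to 19.6 CPM among those of miR-125b. What sets these differences was not tested.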

How the results depend on the processing

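The genes higher with Trim A numbered 69 and those lower 63. They were 114 and 190 with DESeq2, 303 and 738 with quality weights, 10 and 13 at a fold of 2, and 192 and 139 with no fold threshold. All libraries in 1 fit gave 121 lower. Leaving out 1 library gave 8 to 281 higher and 4 to 692 lower, the highest without Trim A replicate 1. Same-numbered libraries did not deviate together (correlations of -0.0997, -0.0103 and 0.0034), so the numbers are not taken as pairs. With the replicate number as a block 6 genes were higher and 1 lower, and the interaction called 0 of 15534, with 3159 at an unadjusted p below 0.05.

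The interaction called 373 genes with DESeq2, 1120 with quality weights, 219 with no filter and 41 at a fold of 2. It called 0 to 1141 with 1 library left out, and 0 without Hypoxia miR-125b replicate 2 or 3, Hypoxia Trim A replicate 3, or Normoxia miR-125b replicate 1 or 2 (2591 to 3063 at an unadjusted p below 0.05). The share of genes without overlap was 34.3% to 60.6% with 1 library left out, the highest without Trim A replicate 1. Without Normoxia miR-125b replicate 1, an alternative chosen after seeing the data, 16 genes were lower in normoxia in place of 7.

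The number of genes with an interval within 1.5-fold was 7981 to 9652 over its alternatives. Of the 44 called genes named, every one was called again without Trim A replicate 1, with RLE and with no filter, but 9 to 10 without a miR-125b library, and 7 with the block. All kept their sign in each of these fits. The causes were not tested. With 3 libraries a group, differences under about 1.5-fold mostly missed the threshold.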

Other observations

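The fold of Trim A over miR-125b differed with gene length across genes, which are not independent replicates, and no test was run. The median log2 fold change was 0.07 in the 3779 tested genes with the shortest annotated length (42 to 1347 bases), 0.02 and -0.02 in the next sets of similar number and -0.07 in the 3779 longest (3505 to 33593 bases). Without Trim A replicate 1 the medians were 0.14, 0.05, -0.05 and -0.14.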
